A study of Mus musculus with 10 samples.

Results

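The Hedgehog pathway genes described here are 9: the ligand genes Shh, Ihh and Dhh, the receptor gene Ptch1, the signal transducer gene Smo, the inhibitor gene Sufu and the transcription factor genes Gli1, Gli2 and Gli3. They were taken by name out of 49554 genes of the NCBI RefSeq table of GRCm38.p6 (the mm10 assembly), and each was measured over its RefSeq span plus 2 kb on each side, here called its window. The windows held 850 of the 922427 CG positions at which the study listed 5-carboxylcytosine (5caC). The data are from genomic DNA of mouse embryonic stem cells grown without feeders in serum medium with LIF. The groups were Tdg cells in serum-2i, Tdg cells in serum, wild-type (wt) cells in serum-2i and wt cells in serum. Serum-2i is the same medium with 3 µM CHIR99021 and 1 µM PD0325901 added, which block the kinases GSK3 and MEK. DNA of serum-grown Tet triple knockout cells was the negative control and is not analysed here. Each group had 2 technical replicates of 1 DNA input, and the table gave 1 coverage value per position and group, so no spread between replicates or cultures enters any value below. The labels give the gene name Tdg without the kind of alteration, and no clone or line.

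5caC is made when TET enzymes oxidise 5-methylcytosine stepwise, and thymine DNA glycosylase, the product of Tdg, cuts it out of DNA. In cells without that enzyme 5caC accumulates where TET enzymes act. In the Hedgehog pathway a secreted ligand binds Ptch1, which frees Smo to enter the primary cilium. Smo then releases Gli proteins from Sufu: Gli2 acts mainly as an activator, Gli3 mainly as a repressor, and Gli1 is an activator that is itself a target gene. The pathway patterns the neural tube, limb and skeleton. Its ligands are developmental genes that pluripotent cells keep largely silent.

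Listed sites, meaning CG positions with a coverage value in the table, numbered 689303 in Tdg cells with serum-2i and 374488 with serum alone, and 110753 and 8685 in wt cells of the same media. The lowest coverage listed was 6 in either Tdg group, 4 for wt cells in serum-2i and 3 for wt cells in serum. A position that is not listed in a group has an unknown value there, not a value of 0. The windows of the 9 genes together held 520 sites (serum-2i Tdg), 458 (serum Tdg), 107 (serum-2i wt) and 7 (serum wt). The Tdg gene itself had 11 sites in serum-2i Tdg, 4 in serum Tdg and none listed in either wt group, which does not check the genotype. The identity of the cells could not be checked either, since no expression was measured.

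The 3 ligand genes had many listed 5caC sites per kb in serum Tdg cells and fewer listed sites in serum-2i Tdg cells. Shh (chr5:28456840-28467101), which patterns the neural tube and limb, had 6 listed sites in serum-2i Tdg and 68 in serum Tdg cells, and in wt cells none listed with serum-2i and 1 with serum. Ihh (chr1:74945315-74951672), a ligand of cartilage and visceral endoderm, had 12 sites for serum-2i Tdg, 48 for serum Tdg, 3 for serum-2i wt and none listed in serum wt cells. Dhh (chr15:98881615-98898562), the ligand of Sertoli and Schwann cells, had 24, 51, 5 and none listed in the same order. Per kb of window, Shh and Ihh had 4.77 and 4.63 sites in serum Tdg cells, more than 99.5% of the 21631 protein-coding genes for either. In serum-2i Tdg cells Shh had 0.421 sites per kb, above 58.0% of protein-coding genes, while Ihh and Dhh with 1.16 and 1.15 stood above 88.5% and 88.2%. These densities are per kb and not per CG, since the number of CGs in a window was not counted.

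**Figure D1:**
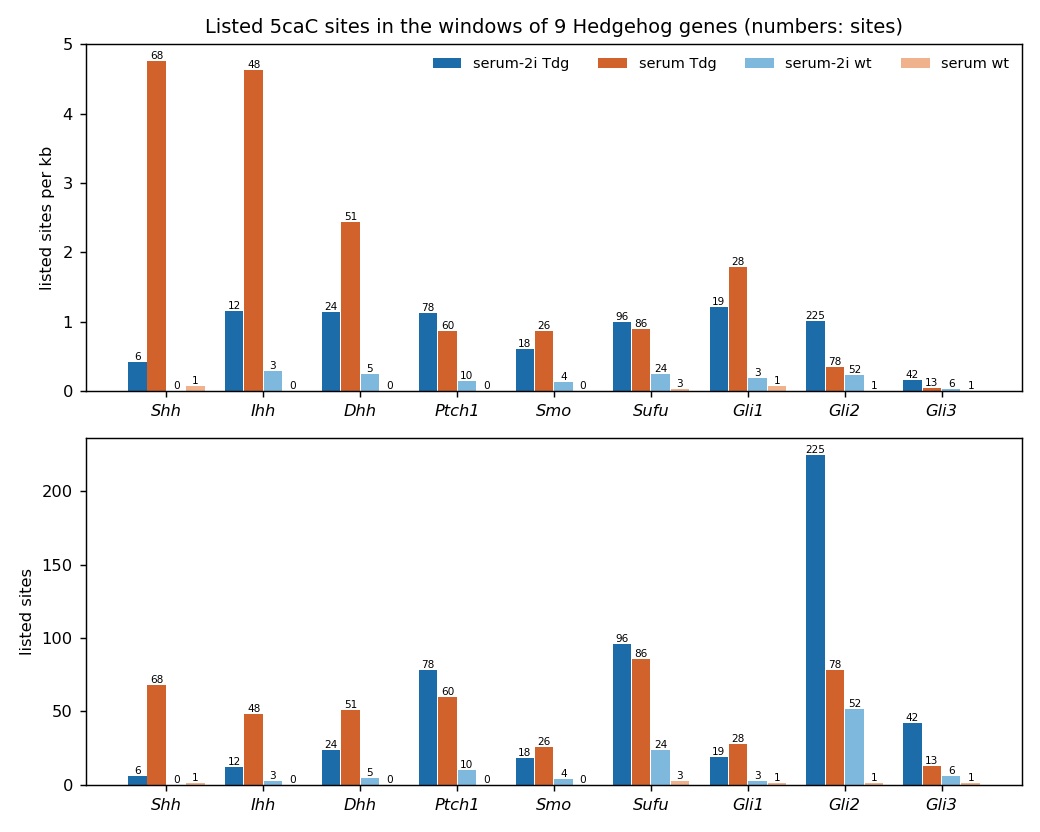
Listed 5caC sites per kb of window (top) and in number (bottom) for the 9 genes, with bars for serum-2i Tdg, serum Tdg, serum-2i wt and serum wt cells in that order and the number of sites above each bar. There is 1 value per group and so no error bar; Shh has 6 sites in serum-2i Tdg and 68 in serum Tdg cells, Gli2 has 225 and 78.

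Coverage at single ligand sites was also lower in serum-2i. In Shh it ran from 7.5 to 21.5 (median 9.75) in serum-2i Tdg and from 6.5 to 54.5 (median 15.5) in serum Tdg cells. All 6 Shh sites of serum-2i were listed in serum too, and all 6 had less coverage in serum-2i. In Ihh 11 sites were listed in both Tdg groups, of which 1 had more coverage in serum-2i and 10 more in serum. In Dhh 19 were, with 2 and 17. Over all 197737 positions listed in both Tdg groups, 100621 had more coverage in serum-2i and 93745 more in serum. Most ligand sites of serum-2i Tdg cells were also listed in serum, 91.7% of them in Ihh and 79.2% in Dhh, against 28.7% for all listed sites of serum-2i Tdg cells. The share was also above that in Smo (61.1%), Gli1 (52.6%), Ptch1 (46.2%) and Sufu (44.8%), and below it in Gli2 (18.2%) and Gli3 (14.3%). Whether it goes with the density of serum sites in a window was not tested.

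Part of the serum sites of the ligand genes lay in tight runs of CGs. Whether equally dense genes have such runs was not tested. In Shh the longest run, with gaps of at most 100 bp, was 16 sites in 530 bp at chr5:28462903-28463432, with a coverage of 9.5 to 52.5 (median 23) in serum Tdg cells. Of these 16 positions 2 had a value in serum-2i Tdg cells and none in wt cells. The highest Shh site, chr5:28460750, had a coverage of 54.5 in serum Tdg cells and was not listed in another group. The next were chr5:28463016, with 52.5 in serum Tdg cells alone, and chr5:28460810, with 14 in serum-2i Tdg and 51 in serum Tdg cells. In Ihh the longest run was 11 sites in 351 bp, with its middle 3.47 kb after the start site, and 1 of them was listed in serum-2i. A single CG of Ihh, chr1:74949064, 2.61 kb after the start, had a coverage of 30 in serum-2i Tdg and 205.5 in serum Tdg cells, which was 16.3% of all Ihh coverage in serum. The CGs chr1:74948085 (12.5 in serum-2i and 99 in serum) and chr1:74947939 (15.5 and 73) followed it. Within 2 kb of the Ihh start 2 sites were listed in serum-2i and 20 in serum (-5.11 on the log2 scale), and over the rest of its window 10 and 28 (-3.43). In Dhh 10 sites lay within 124 bp about 2.4 kb after the start, with a coverage of 6.5 to 136.5 in serum Tdg cells, and 3 of them were listed in serum-2i. The highest were chr15:98896149 (28 in serum-2i and 136.5 in serum), chr15:98896187 (10.5 and 86) and chr15:98896114 (21 and 78). The longest Dhh run of serum-2i Tdg cells was 6 sites in 50 bp at chr15:98897629-98897678, and all 6 were also listed in serum Tdg cells. In Dhh the start, with 7 and 13 sites (-2.90), and the rest of the window, with 17 and 38 (-2.94), had similar ratios. Among the ligands 2 CGs were listed in 3 groups: chr1:74945528 in Ihh, with 11 for serum-2i Tdg, 18 for serum Tdg and 8 for serum-2i wt cells, and chr15:98897135 in Dhh, with 12.5, 29 and 6. All 68 Shh sites of serum lay inside the gene span. The only serum wt site among the ligands was chr5:28464154 in Shh, with a coverage of 15.5 in serum Tdg and 3 in serum wt cells.

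**Figure D2:**
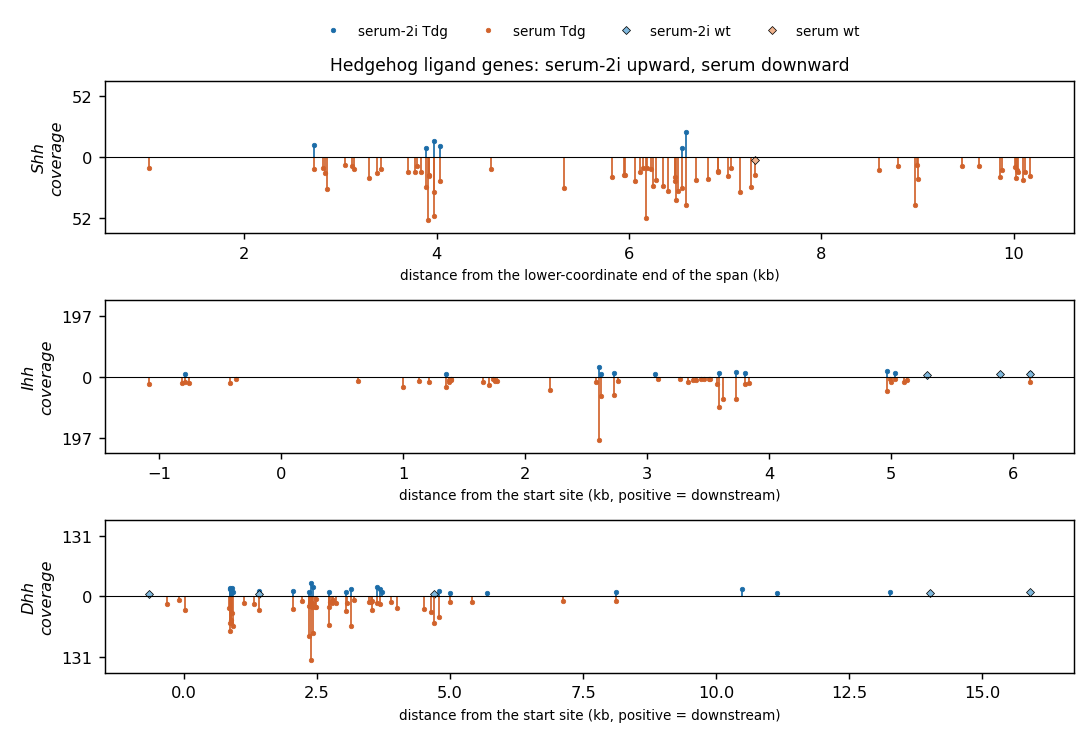
Coverage at each listed CG of Shh, Ihh and Dhh, drawn upward for serum-2i and downward for serum, against distance in kb from the start site (from the lower-coordinate end of the span for Shh). Round points are Tdg and diamonds wt cells; Shh has 6 marks upward in serum-2i Tdg and 68 downward in serum Tdg cells, and the tallest Ihh mark, 205.5, is in serum Tdg cells.

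Promoter sequences, 250 bases before to 50 after the start site, were available from RefSeq (GRCm38.p6) for 7 of the 9 genes. Of these, Smo, Dhh and Gli2 had a listed CG there. The 3 are shown with the listed CGs in capitals, together with Ihh, whose promoter had none listed although the rest of its window was dense. The windows are chr15:98898491-98898790 (minus strand) for Dhh, chr6:29735247-29735546 (plus strand) for Smo, chr1:119053570-119053869 (minus strand) for Gli2 and chr1:74951623-74951922 (minus strand) for Ihh.
Dhh: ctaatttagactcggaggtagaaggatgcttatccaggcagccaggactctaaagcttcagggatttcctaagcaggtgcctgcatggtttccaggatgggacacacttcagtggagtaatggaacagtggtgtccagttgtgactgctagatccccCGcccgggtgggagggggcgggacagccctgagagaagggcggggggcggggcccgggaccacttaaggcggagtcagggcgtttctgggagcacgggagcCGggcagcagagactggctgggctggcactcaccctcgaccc
Smo: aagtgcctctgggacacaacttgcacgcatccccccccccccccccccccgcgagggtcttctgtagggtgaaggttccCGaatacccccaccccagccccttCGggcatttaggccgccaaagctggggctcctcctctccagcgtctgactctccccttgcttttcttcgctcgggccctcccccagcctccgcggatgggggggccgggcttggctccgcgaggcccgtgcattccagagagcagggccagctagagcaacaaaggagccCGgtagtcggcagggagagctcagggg
Gli2: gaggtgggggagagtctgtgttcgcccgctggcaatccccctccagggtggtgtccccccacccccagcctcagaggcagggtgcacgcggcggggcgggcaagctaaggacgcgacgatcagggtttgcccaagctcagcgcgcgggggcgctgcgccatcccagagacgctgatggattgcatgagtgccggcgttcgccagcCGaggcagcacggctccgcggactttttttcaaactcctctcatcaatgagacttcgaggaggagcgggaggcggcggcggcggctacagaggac
Ihh: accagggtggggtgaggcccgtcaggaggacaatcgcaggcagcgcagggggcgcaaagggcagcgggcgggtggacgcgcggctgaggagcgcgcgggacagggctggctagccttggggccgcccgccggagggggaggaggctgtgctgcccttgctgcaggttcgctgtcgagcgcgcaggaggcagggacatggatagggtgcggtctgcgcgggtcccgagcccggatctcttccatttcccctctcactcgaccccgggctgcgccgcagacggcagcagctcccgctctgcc

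All 6 promoter CGs in capitals were listed in serum Tdg cells alone. In Smo they lie 171 and 147 bases before and 23 bases after the start, with coverages of 18.5, 48.5 and 17. In Dhh they lie 93 bases before and 8 bases after it, with coverages of 8 and 30, and in Gli2 45 bases before it, with 9.5. The 7 promoters held 12 (Dhh and Sufu), 17 (Smo), 28 (Gli2), 30 (Ihh), 39 (Gli3) and 47 (Ptch1) CGs, against a median of 7 over all 32585 promoter windows, and most of these CGs were not listed in any group. Over all promoter windows, 12.6% had a listed site in serum-2i Tdg and 16.8% in serum Tdg cells. The GLI binding motif GACCACCCA or its reverse complement TGGGTGGTC occurred in none of the 7 promoters and in 0.255% of all promoter windows.

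Setting serum-2i against serum within Tdg cells compares the media. The study set out to compare the naive and the primed state of pluripotency, and the state of the cells could not be checked here. The comparison was made on the share that a gene took of all listed coverage in its group, as a log2 ratio with an exact conditional 95% interval that covers counting error only. A gene counted as lower or higher where the share differed at least 2-fold and the interval excluded no difference. All 9 genes could be compared, and 5 were lower, against 27.4% of the 22360 genes tested. They were Shh, Ihh, Dhh, Smo and Gli1. Gli2 was the only one higher, against 27.3% of genes tested. Ptch1, Gli3 and Sufu lay between. The median log2 ratio of the 9 was -1.11, against -0.01 for all genes tested. Genes of every length enter these shares, and values for genes of similar length follow below.

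Summed coverage of Shh was 70.5 in serum-2i and 1260 in serum, a log2 ratio of -4.88 (interval -5.14 to -4.64). Ihh had 156.5 and 1257 (-3.73, -3.90 to -3.56), and Dhh had 327.5 and 1511.5 (-2.93, -3.05 to -2.81). The ratio of a gene goes with its length in these data, so each was set beside protein-coding genes of similar span. The 4439 genes of 10 to 30 kb had a median of -0.30, and 0.113% of them were below Shh and 2.66% below Dhh. Genes under 10 kb had a median of -1.18, and 5.08% of the 3150 were below Ihh. Smo and Gli1 were less extreme: 28.4% of the genes of 10 to 30 kb were below Smo and 20.7% below Gli1. In that class 31.0% of genes were lower. Of the 4188 genes of 30 to 100 kb, with a median of 0.30, 21.1% were below Ptch1 and 17.8% below Sufu. The 3 ligand genes kept their call under every alternative setting tried for this comparison.

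Ptch1 (chr13:63508328-63573460), the Hedgehog receptor and a target gene of the pathway, had 78 sites in serum-2i Tdg and 60 in serum Tdg cells, with summed coverages of 1377.5 and 1343 and a log2 ratio of -0.69 (-0.76 to -0.61). In wt cells it had 10 sites in serum-2i and none listed in serum. Of its sites 36 were listed in both Tdg groups, 46.2% of those of serum-2i and 60.0% of those of serum. Over all listed positions these shares were 28.7% and 52.8%. The shared sites made up 8.82% of those of serum in Shh, 22.9% in Ihh and 37.3% in Dhh. These ligand genes had few sites in serum-2i, which limits how large those shares can be. Its densest part was shared: a run of 14 sites in 293 bp at chr13:63513568-63513860, about 52 kb after the start site, had a median coverage of 23.75 in serum-2i, and 8 of the 14 were listed in serum. The first CG of that run had a coverage of 57 in serum-2i and 108 in serum, and chr13:63513675 inside it had 47.5 and 97. The next highest, chr13:63539590, had 34 and 62. In 3 groups were chr13:63542669, with 7 in serum-2i Tdg, 20.5 in serum Tdg and 5 in serum-2i wt cells, and chr13:63554779, with 11.5, 28.5 and 6.5. Within 2 kb of the Ptch1 start none was listed in serum-2i and 2 were in serum. The start site used, chr13:63565735 on the minus strand, lies inside the span, which runs on upstream to chr13:63573460. In the flank beyond that end 1 site was listed in serum-2i and 6 in serum. The highest there, chr13:63574262, had 11 in serum-2i and 50.5 in serum.

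Smo (chr6:29735497-29761366), which passes the signal on from Ptch1, had 18 sites for serum-2i Tdg, 26 for serum Tdg, 4 for serum-2i wt and none listed in serum wt cells. Its coverage sums were 388 and 507.5 in the Tdg groups, a log2 ratio of -1.11 (-1.25 to -0.97). Within 2 kb of its start 1 site was listed in serum-2i and 9 in serum (-4.93, -5.68 to -4.26), and over the rest of the window 17 were listed in each (-0.53, -0.69 to -0.38). Protein-coding genes of 10 to 30 kb with coverage in both regions leaned the same way, with medians of -1.44 at the start and -0.30 over the rest. The call of Smo was lost with median-ratio scaling (-0.53), without flanks (-0.91) and from a coverage of 10 upward (-0.98). Near the other end, 24.0 kb after the start, the CGs chr6:29759484 and chr6:29759521 were listed in 3 groups, the first with coverages of 23 in serum-2i Tdg, 18.5 in serum Tdg and 21.5 in serum-2i wt cells. The second had 53, 31 and 6, and chr6:29757202 nearby had 19, 9 and 8.5. The value of 21.5 was 53.8% of the Smo coverage of serum-2i wt cells.

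Sufu (chr19:46396896-46488804), which holds Gli proteins inactive, had similar numbers in the Tdg groups, 96 sites in serum-2i and 86 in serum, with a log2 ratio of -0.82 (-0.89 to -0.76). It had 24 sites in serum-2i wt cells, and its 3 sites in serum wt cells were the most of any of the 9 genes. All 3 serum wt sites were also listed in serum Tdg cells and lay in the last 12 kb of the gene. One of them, chr19:46486236, was the only position of the 850 listed in all groups, with coverages of 45 for serum-2i Tdg, 37 for serum Tdg, 7 for serum-2i wt and 5 for serum wt cells. The highest Sufu site, chr19:46443742, 46.8 kb after the start, had 108.5 in serum-2i Tdg, 216.5 in serum Tdg and 20 in serum-2i wt cells. The others of the highest 3 were chr19:46435531, with 61.5 in serum-2i Tdg and 109.5 in serum Tdg cells, and chr19:46417875, where serum-2i was higher, with 94.5 and 27. The CG chr19:46466265 had 16.5 in serum-2i Tdg, 7.5 in serum Tdg and 10.5 in serum-2i wt cells. The other serum wt sites were chr19:46477599, with 10 in serum-2i Tdg, 24.5 in serum Tdg and 4.5 in serum wt cells, and chr19:46487228, with 14.5, 30.5 and 7.5. Sufu had 1 site in serum-2i and 2 in serum within 2 kb of its start.

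**Figure D3:**
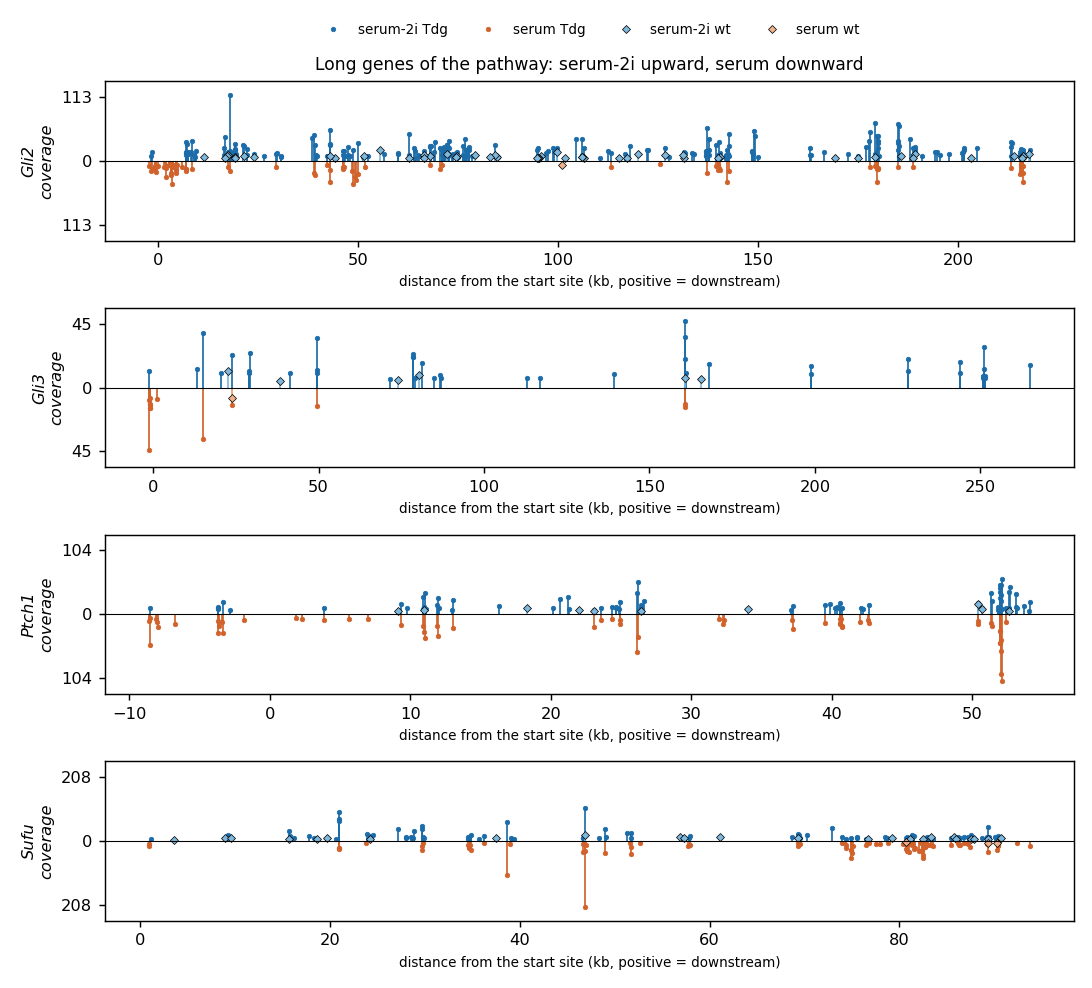
Coverage at each listed CG of Gli2, Gli3, Ptch1 and Sufu against distance in kb from the start site, drawn upward for serum-2i and downward for serum, with round points for Tdg and diamonds for wt cells. Gli2 has 12 serum Tdg sites within 2 kb of its start, against 2 in serum-2i Tdg, and 66 farther away, against 223.

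Gli1 (chr10:127329882-127341579) had 19 sites for serum-2i Tdg, 28 for serum Tdg, 3 for serum-2i wt and 1 for serum wt cells. Its coverage sums were 261.5 in serum-2i Tdg and 433 in serum Tdg cells, a log2 ratio of -1.45 (-1.61 to -1.29), which came to -0.87 and below the 2-fold mark with median-ratio scaling. Its window reaches into Arhgap9, which held 4 of the 19 and 3 of the 28 sites and also the serum wt site, chr10:127328464, with 15.5 in serum-2i Tdg and 4.5 in serum wt cells. The highest Gli1 site, chr10:127331608, was alike in the Tdg groups, with 37.5 in serum-2i and 40 in serum. The next, chr10:127338037 and chr10:127336586, had 11 and 13.5 in serum-2i and 28.5 and 27 in serum.

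Gli2 and Gli3 went the other way over their bodies. Gli2 (chr1:118834061-119054405) had 225 sites for serum-2i Tdg, 78 for serum Tdg, 52 for serum-2i wt and 1 for serum wt cells. Its summed coverage was 4438.5 in serum-2i Tdg and 1238 in serum Tdg cells, a log2 ratio of 1.12 (1.06 to 1.18). The call was lost when groups were scaled by their number of sites (0.96) and when sites were counted in place of coverage (0.65). Gli3 (chr13:15463723-15730026) had 42, 13, 6 and 1 sites in the same order of groups, with coverage sums of 657 in serum-2i Tdg and 208.5 in serum Tdg cells and a ratio of 0.93 (0.77 to 1.10). That is just under 2-fold; without flanks it was 2.04 and past it. Both are among the longest genes, and 2203 protein-coding genes of 100 kb or more had a median of 0.95, with 55.1% below Gli2 and 49.4% below Gli3. Gli3 was sparse, with 0.155 sites per kb in serum-2i Tdg cells, more than 35.5% of protein-coding genes of any length. Gli2 had 1.00 site per kb there, more than 84.6%.

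At their start sites both genes had the same direction as the ligands. Within 2 kb of the Gli2 start 2 sites were listed in serum-2i and 12 in serum, with coverage sums of 23 and 148 (log2 ratio -3.41, interval -3.89 to -2.96). Over the rest of the Gli2 window the numbers were 223 and 66 (1.30, 1.23 to 1.36). Within 2 kb of the Gli3 start 1 site was listed in serum-2i and 8 in serum (-4.06, -4.73 to -3.45), and over the rest 41 and 5 (2.17, 1.94 to 2.41). The Gli3 start region overlaps the lncRNA gene Gm6556, which held 7 of the 13 Gli3 sites of serum. Among 535 protein-coding genes of 100 kb or more with coverage in both regions, the medians were -1.69 at the start and 1.02 over the rest, and 70.1% were below 0 at the start and above it elsewhere. In serum-2i wt cells neither Gli2 nor Gli3 had a site listed within 2 kb of the start.

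Within the span of Gli2 the sites of serum-2i Tdg cells began 6.92 kb after the start and ran on to the far end, and the 2 near the start lay in the flank. The highest, chr1:119035628, 18.0 kb after the start, had a coverage of 117.5 in serum-2i and 17 in serum. The third highest, chr1:118868618, 185 kb after the start, had 64.5 in serum-2i and was not listed elsewhere. Of the 41 Gli2 positions listed in both Tdg groups, 32 had more coverage in serum-2i and 9 more in serum. The site chr1:118874334 was listed in 3 groups, with 67.5 in serum-2i Tdg, 9.5 in serum Tdg and 7.5 in serum-2i wt cells. So were chr1:118913180, with 14, 16 and 6.5, and chr1:118913599, with 10, 7 and 5.5. In Gli3 the highest site, chr13:15624511, 161 kb after the start, had 47 in serum-2i and 11.5 in serum. The next, chr13:15462555, lies before the start and inside Gm6556, and had 12 in serum-2i and 44.5 in serum. The CG chr13:15478738 had 39 and 36.5, and chr13:15624452 had 35.5 in serum-2i Tdg, 14 in serum Tdg and 6.5 in serum-2i wt cells. The single serum wt sites of Gli2 (chr1:118952670, coverage 6.5) and Gli3 (chr13:15487440, coverage 7) were not listed in any other group.

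**Figure D4:**
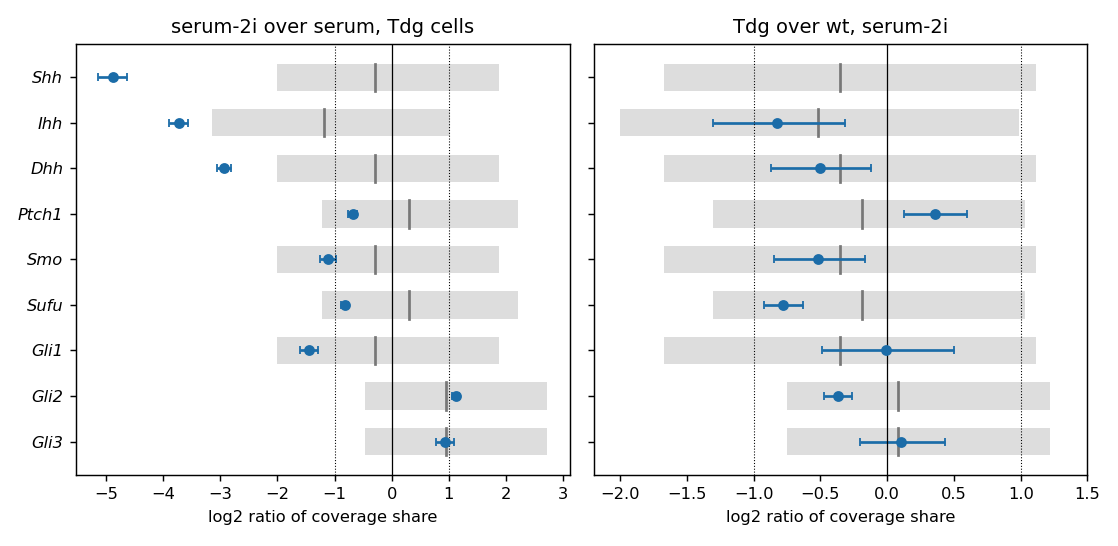
Log2 ratio of the coverage share for the 9 genes, with exact conditional 95% intervals that cover counting error only, for serum-2i over serum in Tdg cells (left) and Tdg over wt in serum-2i (right). Grey bars run over the central 80% of protein-coding genes of the same span class with the class median as a dark line, and dotted lines mark 2-fold; Shh (-4.88), Ihh (-3.73) and Dhh (-2.93) lie below their grey bars on the left, and all 8 genes shown on the right lie within theirs.

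Tdg was next set against wt cells within serum-2i. In number, the windows held 520 sites in Tdg and 107 in wt cells. In share of coverage, none of the 8 genes that could be compared was higher or lower, against 12.8% higher and 21.2% lower of the 18536 genes tested. Their median log2 ratio was -0.44, against -0.17 for all genes tested. The lowest was Ihh with -0.83 (-1.30 to -0.31) and the highest Ptch1 with 0.36 (0.12 to 0.60). Gli2 had -0.37 (-0.47 to -0.26), from 225 sites in Tdg and 52 in wt cells. Shh had 6 sites in Tdg cells and none listed in wt cells, so it had no ratio. Directions depended on the scaling: by number of listed sites all 8 ratios were above 0, that scaling having moved the median of all genes by 1.16 and the calls to 49.3% higher and 3.82% lower. Of the 107 wt sites, 49 (45.8%) were also listed in Tdg cells, against 49.1% of all wt sites of this medium.

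The serum wt group had 7 sites in these windows, so its comparisons rest on 1 to 3 sites a gene. For Tdg over wt in serum, 5 genes could be compared, of which Shh was higher (1.28, interval 0.15 to 2.72; 68 sites against 1) and Gli3 lower (-2.54, -3.30 to -1.66; 13 against 1). Of the 4987 genes tested 3.71% were higher and 57.8% lower. For serum-2i over serum in wt cells, 4 could be compared, with Gli2 higher (1.62, 0.84 to 2.54; 52 sites against 1) and Gli1 (-2.29; 3 against 1) and Gli3 (-1.71; 6 against 1) lower. Of the 4436 genes tested 3.74% were higher and 65.3% lower. Only genes with a serum wt site enter these figures. Counting sites in place of coverage gave wider intervals that all included 0, with ratios in wt cells of 2.03 for Gli2, -2.09 for Gli1 and -1.09 for Gli3.

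Other pathway genes were followed with lists of ligand processing and reception, of cilium and relay proteins and of target genes. In serum-2i against serum Tdg cells, 15 reception genes could be compared, and their median log2 ratio was 0.17: 2 were lower, 2 were higher and the other 11 lay between, against 27.4% lower and 27.3% higher of all genes tested. The lower ones were Disp2, a relative of the ligand exporter Disp1 (8 sites against 18, -2.55), and Scube3, a secreted protein related to the ligand carrier Scube2 (67 against 98, -2.16). The higher ones were Gpc3, an X-linked glypican that competes for ligand (41 against 4, 3.08), and Disp1 (45 against 11, 1.33). The higher ones span 342 kb (Gpc3) and 135 kb (Disp1), and the lower ones 15.5 kb (Disp2) and 32.8 kb (Scube3). Among the reception genes with sites in serum wt cells, Hhat and Scube2 had 1 each and Scube1 and Scube3 had 2 each.

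Of 23 compared cilium and relay genes, 7 were higher, 3 lower and 13 between, with a median of 0.22, against 27.3% higher and 27.4% lower of all genes tested. Among the higher were Gsk3b, a kinase that phosphorylates Gli proteins and a target of CHIR99021 (92 sites against 10, 2.43), Spop, an adaptor for Gli degradation (20 against 5, 1.89), and Stk36 and Cul3 (1.41 each). Inpp5e (-1.73), Kif7, the cilium tip kinesin that binds Gli proteins (17 against 26, -1.59), and Ift172 (-1.12) were lower. Here too length differs: Gsk3b spans 157 kb, Spop 79.3, Cul3 75.8 and Stk36 35.5, while Inpp5e spans 13.0, Kif7 17.7 and Ift172 38.1. Ulk3, with 7.09 kb, was higher all the same (1.23). Span class medians ran from -1.18 under 10 kb to 0.95 at 100 kb or more. Prkaca, a catalytic subunit of protein kinase A, had 3 sites in serum wt cells, and 13 in either Tdg group. The other relay genes with serum wt sites were Ulk3 with 1 and Csnk1d, Csnk1e and Ift122 with 2 each.

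The target genes had the lowest median of the 3 lists. Without Ptch1 and Gli1, 12 of 20 were lower, none higher and 8 between, with a median of -2.02, against 27.4% lower and 27.3% higher of all genes tested. Foxa2, a floor plate factor, had 1 site in serum-2i and 26 in serum (-5.81), Foxl1 2 and 33 (-4.96), Foxf2 14 and 54 (-3.62) and Foxf1 12 and 53 (-3.56). Most of the list, the 4 named included, are under 10 kb, a span class with a median of -1.18 in which 54.9% of genes were lower. The list was chosen with earlier results of these data known, so its direction is no independent evidence. None of Foxa2, Foxl1 and Foxf2 had a site listed in either wt group, while Foxf1 had 2 and 5 sites in wt cells with serum-2i and with serum. Grem1 and Pax9 had 1 serum wt site each.

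**Figure D5:**
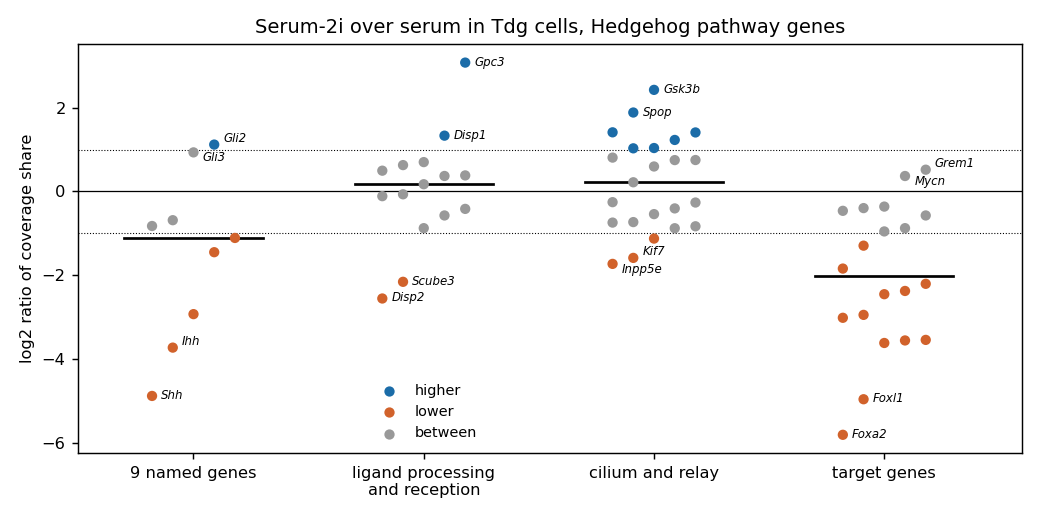
Log2 ratio of coverage share, serum-2i over serum in Tdg cells, for the 9 genes and the other genes of 3 lists (Ptch1 and Gli1 are left out of the targets), 1 point a gene, coloured by call, with black bars for medians and dotted lines at 2-fold. The medians are -1.11, 0.17, 0.22 and -2.02 in that order, and the reception and target lists overlap.

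The genes most like each of the 9 were sought among 9750 other protein-coding genes with at least 20 sites. The measure was the Euclidean distance over the 4 groups of the log2 of listed sites plus 0.5, per kb of window. For a group without a listed site this value depends on window length alone. Nearest to Shh were Tbx3 (distance 0.766; 6, 64, 0 and 2 sites in serum-2i Tdg, serum Tdg, serum-2i wt and serum wt cells) and Evx2 (0.805). Ihh was nearest to Camk2n1 (0.350) and Hoxc8 (0.484), and Dhh to Slc29a1 (0.367) and Itgb7 (0.374). Ptch1 had Il17rd as its nearest gene (0.173; 79, 57, 11 and 0 sites), followed by Gipc2 (0.311). The nearest to Smo were Dbndd2 (0.299) and Kcnc4 (0.342), to Gli1 Ppt2 (0.211) and Loxl3 (0.330), and to Sufu Pigo (0.143) and Gpatch3 (0.148). For Gli2 they were Pawr (0.249) and Map6 (0.313), and for Gli3 Cyyr1 (0.218) and Dip2c (0.309).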

How the data were processed

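5caC was measured at CG sites in 10 libraries, of which 8 in 4 groups are used here. Per the labels' protocols, 5-hydroxymethylcytosine and unmodified CGs were blocked, 5caC was decarboxylated and tagged by the methyltransferase eM.SssI, and tagged fragments were enriched and sequenced on an Ion Proton. The authors deposited 1 coverage signal per CG and group, a multiple of 0.5 that was read as the mean of 2 technical replicates. The control was used to make that table, per the labels; how is not given there. The build is mm10, per the submitters' processing notes; the sources used here do not name the aligner, the caller or the listing rule. Library depth is unknown, and summed listed coverage stood in for it.

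All 15247 listed positions inside RefSeq promoter windows fell on the C of a CG when counted from 0 and none did when counted from 1, so positions are printed with 1 added. Genes with a mean summed coverage of 20 or more over the 4 groups were kept, as all 9 were. Intervals (Python 3.11.15, scipy 1.17.1) used coverage times 2 and cover counting error only, with every read taken as a separate count. Amplified reads that carry no molecular identifier do not stand for separate molecules, so the intervals may be too narrow. With 1 value per group no p-value was computed. The interval code was tested on simulated data. The exon structure was not used. The alternatives were scaling, coverage minimum, flank, overlapping genes, highest site, gene filter, size rule and counting sites. Named are the 9 genes, their 3 highest sites, sites in 3 groups or in serum wt, the 2 most similar genes each, and of each list the 4 lowest and 4 highest called genes and those with serum wt sites, except for some genes that are not reported here. Replicates were technical. The members and lists were chosen with earlier results of these data known.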

Additional observations from a re-analysis of the deposited data

Results flagged for a closer look

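Gli3 was singled out because its medium effect ran in opposite directions by genotype. The log2 ratio of serum-2i over serum was 0.93 in Tdg cells and -1.71 in wt cells, a difference of 2.65. The difference was not tested, and the wt side rests on 6 sites in serum-2i and 1 in serum. Of the 4436 genes with a ratio in wt cells, the median was -1.78, so a value below 0 there was the rule. With median-ratio scaling Gli3 had 1.51 in Tdg cells and -0.0078 in wt cells, so the wt value was near 0, and by counting sites its wt ratio (-1.09) was not called.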

How the results depend on the processing

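No paired analysis was possible because the table holds 1 value per group, and for the same reason no replicate could be left out and the planned count model was not run. In Tdg cells the 9 ratios of serum-2i over serum kept their sign under every alternative run. Against 5 lower and 1 higher as reported, median-ratio scaling gave 3 lower and 2 higher (it moved the median of all genes by 0.58 and the calls to 39.8% higher and 17.1% lower). Without flanks, without sites in other genes, without each gene's highest site, or with a 1.5-fold rule 2 were higher, and by number of sites, as scaling or as measure, 0 were. There were 4 lower without flanks, 4 lower from a coverage of 10 and 7 lower under the 1.5-fold rule, which called 35.9% of all genes higher and 36.5% lower. For Tdg over wt in serum-2i (0 called), scaling by number of sites gave 3 higher, a coverage of at least 10 gave 1 higher and 2 lower of 5 compared, and a 1.5-fold rule gave 2 lower. Signs turned there with scaling by number of sites for Ihh (0.33), Dhh (0.65), Smo (0.64), Gli1 (1.14), Gli2 (0.79) and Sufu (0.38). They turned for Smo without the highest site (0.32), and for Gli1 with median-ratio scaling (0.19), by number of sites (0.025), from a coverage of 6 (0.90), with 5 kb flanks (0.024) and without the highest site (0.62).

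For the media in wt cells (1 higher, 2 lower), median-ratio scaling (shift of the all-gene median 1.71; 24.7% higher and 26.0% lower) gave 2 higher and 0 lower and turned Sufu to 1.00. From a coverage of 6 there were 0 higher and 1 lower, without sites in other genes 0 and 1, and without flanks 1 lower. From a coverage of 10 no gene and without the highest site 1 gene (Sufu) could be compared, so the 0 calls there say nothing. By counting sites 0 were called. For Tdg over wt in serum (1 higher, 1 lower), median-ratio scaling (shift 1.33; 22.9% higher and 26.4% lower of all genes) gave 2 higher and turned Gli1 (0.48) and Sufu (0.67), and scaling by number of sites (shift 2.01; 39.9% and 16.5%) gave 4 higher and 0 lower and turned both (1.16 and 1.35). From a coverage of 6 there were 0 higher and 2 lower, with Gli2 at -1.35, and a 1.5-fold rule gave 2 lower. By counting sites 0 were called, and the 0 calls from a coverage of 10 (no gene compared) and without the highest site (Sufu alone, 0.0031) say nothing. Scaling adds the same amount to every log2 ratio of a comparison, and the 1.5-fold rule changes calls but no ratio. The removal of single sites or of low coverage leaves fewer genes to compare. The cause of the other changes was not tested. The few serum wt sites limit every statement on that group.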

Other observations

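The genes that lie near the 9 are given with their own values between the Tdg groups. Lmbr1 and Rnf32 lie 763 and 726 kb from Shh, and an intron of Lmbr1 is known to hold the limb enhancer of Shh. Lmbr1 had 25 listed sites with serum-2i and 5 with serum (1.31 as a log2 ratio) and Rnf32 15 and 5 (1.16), against -4.88 for Shh. Inhbb, an activin subunit gene 361 kb from Gli2, had 10 sites in serum-2i and 34 in serum (-2.76), against 1.12 for Gli2. Ahcyl2, 7.01 kb from Smo, had 104 and 24 (1.68), against -1.11 for Smo. Trim8, 12.8 kb from Sufu, had 16 and 25 (-1.55), and Arhgap9, which overlaps Gli1, had 24 and 40 (-1.58), against -1.45 for Gli1. The windows of Arhgap9 and Gli1 share CGs, so their ratios rest partly on the same sites. Inhbe, 7.82 kb from Gli1, had 10 and 11 (-1.35). Sites in serum wt cells were listed in Inhbb, Arhgap9, Nhej1, Rhebl1 and Lmbr1l (1 each) and in Fancc (2). Of the 14 neighbours in the list, 3 were higher, 5 lower and 6 between, against 27.3% higher and 27.4% lower of all genes tested, so the counts are near the background. Length differs within several of these pairs. Lmbr1 spans 149 kb and Shh 10.3 kb, Ahcyl2 144 kb and Smo 25.9 kb, and Inhbb 6.79 kb and Gli2 220 kb. Protein-coding genes of 100 kb or more had a median log2 ratio of 0.95, and those of 30 to 100 kb 0.30. For 10 to 30 kb it was -0.30, and under 10 kb -1.18. Whether the sites of a gene and of its neighbours are linked was not tested.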
